A study of Mus musculus with 2 samples.

Results

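The regions here are very short spans read often in RNA from mouse thymus, listed as splice junctions and not all shown to be introns. They are the junctions of the series' junction list (mm9) that span at most 100 bases, carry at least 10 reads and lie on an autosome. The rule kept 9412 of the 532115 junctions in the list. Among the 133821 autosomal junctions with at least 10 reads, called well-read here, they made up 7.03% of the junctions and held 11.84% of the reads. They were selected on span, reads and chromosome, so these values are given as a description.

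Thymus was taken from adult C57BL/6J mice of 8 weeks, described as littermates pooled over both sexes, and RNA-seq was done on 2 libraries named as biological replicates 1 and 2. The libraries were stranded and made from polyadenylated RNA over 200 nucleotides depleted of ribosomal RNA, and were sequenced as paired reads of 76 bases. There is 1 group and no treatment, so no comparison between conditions exists, and with 1 donor entry for both libraries the spread between them may be in part technical. The junction list gives each junction a summed read count, the reads of 2 replicate entries called R1 and R2, and 2 flags called A and C, whose meaning is not given in the sources used here.

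The libraries held 49.3 and 63.1 M estimated fragments, and the junction entries R1 and R2 held 17.21 and 21.73 M reads. Thymocyte markers were present (summed level 3072.0 TPM, a measure scaled by transcript length and library size, in library 1 and 3016.4 TPM in library 2 for 6 genes), as were all 5 genes of the thymic epithelium list (934.3 and 1264.4 TPM). Markers of other cells and tissue were also measured, given here for libraries 1 and 2. Of the fat list, Ucp1 of brown fat had 346.0 and 124.0 TPM and Adipoq 43.9 and 48.4 TPM. Of the liver list, Alb had 44.2 and 0.18 TPM and Apoa1 10.9 and 2.6 TPM. Summed levels were 2460.0 and 3150.0 TPM for 2 red cell genes and 432.0 and 615.8 TPM for 3 macrophage genes. For 3 B cell genes they were 46.22 and 39.69 TPM. The 4 Y-linked genes examined, Ddx3y, Eif2s3y, Kdm5d and Uty, were listed at 0 TPM in library 1, against its label of both sexes, and at 2.61, 5.5, 7.53 and 2.64 TPM in library 2.

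Introns are cut out of the precursor RNA by the spliceosome, which reads a donor site at the 5′ end, a branch point and a tract of pyrimidines before the acceptor site at the 3′ end. Most introns start with GT and end with AG, and a minority start with GC. Very short introns leave little room for these signals, and in vertebrates they are often recognised as a unit across the intron rather than across the exon.

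The list does not name genes and its build differs from that of the annotation used (GENCODE M21 on GRCm38), so genes were named by matching lengths: 2 consecutive introns and the exon between them had to have the lengths of 1 annotated gene on the same chromosome and strand. This named 7500 members (79.7%), in 3240 genes, against 82.9% of all well-read junctions. With every intron length moved by 1 or 2 bases, between 2 and 6 members matched. A further 1012 members lay inside a named gene without matching one of its introns, 65 lay on the strand opposite to one, and 835 had no gene.

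Bases could be read where an annotated transcript keeps the intron in an exon. The introns below are shown because they hold the most reads among those inside a coding region (Actb, Crip1, Eef2, Gnb2, Eef1a1 and Arhgef1), are the shortest of that kind (2310061I04Rik, Adck5 and Inpp5e), or belong to Lat, the adapter that T cell receptor signals pass through. Of the shortest, 2310061I04Rik held 10 reads (4 in R1 and 6 in R2), the minimum of the rule. Adck5 held 49 and 54 reads and Inpp5e 17 and 25. Capitals mark the first and last 2 bases, and each intron is written 5′ to 3′ on the gene's strand from the GENCODE M21 transcripts.
Actb intron of 87 bases, chr5:142905477-142905563 of GRCm38, minus strand: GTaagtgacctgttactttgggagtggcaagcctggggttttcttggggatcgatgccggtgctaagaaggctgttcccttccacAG
Crip1 intron of 79 bases, chr12:113153376-113153454, plus strand: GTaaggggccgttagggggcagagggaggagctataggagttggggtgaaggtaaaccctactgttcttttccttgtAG
Eef2 intron of 82 bases, chr10:81181411-81181492, plus strand: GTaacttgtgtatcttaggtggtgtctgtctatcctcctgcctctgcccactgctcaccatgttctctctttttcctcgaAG
Gnb2 intron of 96 bases, chr5:137528908-137529003, minus strand: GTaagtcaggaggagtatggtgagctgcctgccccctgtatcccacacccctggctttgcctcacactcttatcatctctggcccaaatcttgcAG
Eef1a1 intron of 85 bases, chr9:78479193-78479277, minus strand: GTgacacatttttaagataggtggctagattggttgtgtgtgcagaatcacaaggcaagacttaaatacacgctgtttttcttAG
Arhgef1 intron of 92 bases, chr7:24924884-24924975, plus strand: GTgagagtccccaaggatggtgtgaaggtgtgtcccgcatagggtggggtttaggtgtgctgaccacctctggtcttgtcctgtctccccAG
2310061I04Rik intron of 50 bases, chr17:35892990-35893039, minus strand: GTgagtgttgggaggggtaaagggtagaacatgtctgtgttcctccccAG
Adck5 intron of 63 bases, chr15:76594611-76594673, plus strand: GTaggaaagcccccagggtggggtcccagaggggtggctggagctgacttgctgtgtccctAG
Inpp5e intron of 64 bases, chr2:26399349-26399412, minus strand: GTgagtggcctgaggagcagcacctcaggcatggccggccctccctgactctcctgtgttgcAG
Lat intron of 75 bases, chr7:126367971-126368045, minus strand: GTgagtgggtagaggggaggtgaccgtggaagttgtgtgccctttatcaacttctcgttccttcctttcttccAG
Lat intron of 79 bases, chr7:126368107-126368185, minus strand: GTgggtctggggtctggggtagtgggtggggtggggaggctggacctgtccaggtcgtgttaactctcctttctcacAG
Lat intron of 83 bases, chr7:126368216-126368298, minus strand: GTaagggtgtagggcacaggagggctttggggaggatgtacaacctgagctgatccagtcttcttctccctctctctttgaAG

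All 12 begin with GT and end with AG, and pyrimidines (C and T) fill most of the 20 bases before the AG in each. They made up 60% there in the Actb intron and 95% in the Lat intron of 75 bases, the lowest and the highest share of the 12. The G + C share was 38.8% in the Eef1a1 intron and 65.6% in the Inpp5e intron, the lowest and the highest of those shown.

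Sequence was available in this way for 1547 members. Of those with A = 1 and C = 1, all 1502 had GT and AG at their ends, as did all 42 with A = 0 and C = 1, and the remaining 3 members, with C = 0, had GC and AG. The flag C therefore went with the bases at the ends in every member that could be read. The median G + C share was 57.8% in the members (quartiles 51.8% and 62.7%), 55.6% in kept introns of over 100 and up to 200 bases (n = 1675) and 52.7% in those of over 200 and up to 500 bases (n = 2000). GGG, counted at every position on the gene's strand, occurred 3.67 times per 100 bases in the members, 3.41 times in the next length class and 2.67 times in the longest.

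The end signals themselves differed little with length. The last 3 bases were CAG in 71.3% of the members and in 73.3% of the kept introns of over 100 and up to 200 bases, and TAG in 24.9% and 22.0%. The first 5 bases were GTGAG in 36.7% of the members and 31.5% of the longer class, and GTAAG in 18.2% and 19.7%. Pyrimidines filled a median of 75% of the 20 bases before the AG in both. These introns are a selection, since each needed an annotated transcript that keeps it, and no test was made because introns are not replicates.

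A kept intron adds residues and leaves the frame after it as it was where it holds no stop codon in frame and its length is a multiple of 3. Of the 1445 kept members inside a coding region, 955 (66.1%) held an in-frame stop, against 1162 of 1404 (82.8%) in kept introns of over 100 and up to 200 bases. Longer introns hold more codons, so these shares are not at equal length. Of the 440 in the longer class whose length is a multiple of 3, 78 were open throughout. Among the 474 members whose length is a multiple of 3, 134 were open throughout. The Gnb2 intron shown above, in the gene of a G protein beta subunit, is one of these, and so is an intron of 75 bases in Ppp1ca, a catalytic subunit of protein phosphatase 1, at chr19:4194907-4194981 of GRCm38 (plus strand).
Ppp1ca: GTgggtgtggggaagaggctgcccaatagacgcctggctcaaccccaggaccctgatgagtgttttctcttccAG

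The deposited transcript levels give the abundance of the transcripts that keep such introns. For Actb the transcript that keeps the intron had 76.03 and 57.03 TPM in libraries 1 and 2, in a gene of 7910 and 5360 TPM. For Gnb2 it had 86.7 and 93.84 TPM, in a gene of 1240 and 1200 TPM. Over the 1069 members with such a level in a gene of at least 1 TPM in both libraries, the transcript made up a median of 5.71% and 5.95% of its gene's TPM. The same shares were 5.69% and 5.83% in kept introns of over 100 and up to 200 bases. The transcript model as a whole is quantified, so these shares are not a measure of reads over the intron.

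The spans of the members were far from evenly spread. The median was 85 bases, with quartiles of 79 and 92, and the commonest spans were 82 and 86 bases, with 403 junctions each. Under 70 bases there were 704 members (7.48%), a share that was 4.31% by the reads of R1 alone and 4.44% and 2.73% with a minimum of 20 and 50 reads. Around the limits of the rule, 457 members spanned 99 or 100 bases and 420 well-read junctions spanned 1 or 2 bases more than allowed, and 645 members had 10 to 12 reads where 1164 junctions of the same length had 7 to 9.

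The flags split the members into classes with different spans. The 7803 members with A = 1 and C = 1 held 97.66% of the members' reads and had a median of 184 reads. Their median span was 86 bases and 1.38% of them were under 70 bases. The 726 members with A = 0 and C = 1 had a median of 20.5 reads and a median span of 85 bases, with 12.53% under 70 bases. The 866 members with A = 0 and C = 0 had a median of 18 reads, a median span of 63 bases and 58.2% under 70 bases. Only 17 members had A = 1 and C = 0. Length matching named 94.53% of the first class, 15.15% of the second and 0.12% of the third.

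**Figure D1:**
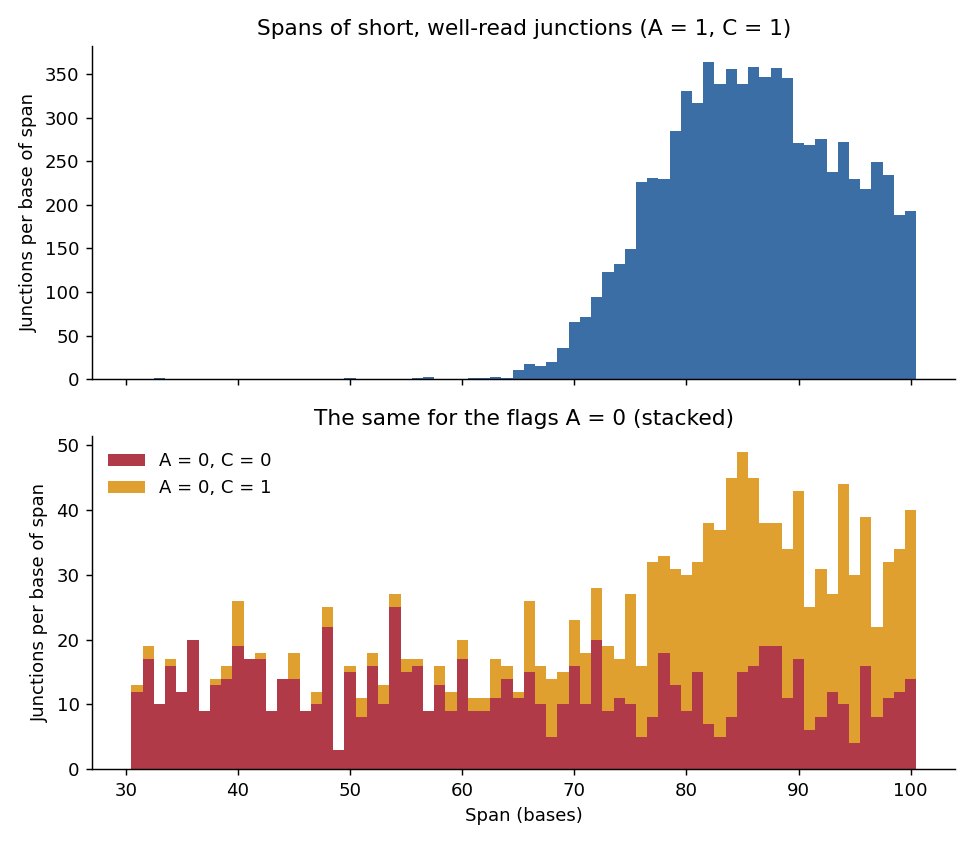
Number of members at each span in bases, above for A = 1 and C = 1 and below, stacked, for A = 0 with C = 0 (red) and C = 1 (yellow). In the upper panel 1.38% of the junctions are under 70 bases, against 58.2% of those with A = 0 and C = 0.

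Annotated introns of the shortest lengths were seldom found. Those of at most 100 bases that were found are the named members themselves, so this describes the same junctions from the side of the annotation. The annotation held 13265 autosomal introns of at most 100 bases, and 7495 of them (56.5%) were found among the named members. In genes of at least 10 TPM, 83.9% of 7330 such introns were found, against 79.3% of 9984 introns of over 100 and up to 200 bases. By length in those genes, 0 of 59 introns of 30 bases or fewer were found, 1 of 39 of 31 to 50 bases, 3 of 29 of 51 to 60 bases, 143 of 183 of 61 to 70 bases and 1511 of 1725 of 71 to 80 bases. The junction list holds no span under 31 bases, so the first of these classes could not have been found.

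The 12 members with the most reads lay in 10 genes, and Actb and Eef2 held 2 each. The intron of 87 bases of Actb, the gene of beta-actin, held 64013 reads in R1 and 47540 in R2 (chr5:143667156-143667242 of mm9, minus strand), or 2950 ± 1080 RPM (SD, n = 2), which are reads scaled to 1 M junction reads of the entry. Its gene had 6640 ± 1800 TPM (SD, n = 2). The second short intron of Actb, of 95 bases, held 9397 and 10027 reads. The Actb intron of 87 bases was the most read of all well-read autosomal junctions, ahead of the intron of 959 bases before it with 110033 reads.

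Trbc1, the first constant region of the T cell receptor beta chain, was next. Its intron of 97 bases (chr6:41489131-41489227, plus strand) held 12741 reads in R1 and 19229 in R2, or 740 and 885 RPM. Atp5a1, the alpha subunit of the mitochondrial ATP synthase, had 10581 and 15217 reads over an intron of 100 bases. Eef1a1, which brings aminoacyl-tRNA to the ribosome, had 10504 and 13982 over 99 bases. The entries of Trbc1 and Atp5a1 were higher in R2 in RPM and those of Actb were higher in R1.

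Coro1a, an actin-binding protein of white blood cells, had 9451 and 11562 reads over an intron of 87 bases. Hnrnpab, an RNA-binding protein, had 11955 and 8884 over the first intron of its transcript, of 80 bases, which lies in the 5′ UTR. Eef2, the factor that moves the ribosome along the message, had 2 introns among the 12, of 85 bases (8145 and 9177 reads) and 82 bases (7280 and 8601 reads). Cfd, a serine protease of the complement system made in fat, had 8058 and 9068 over 90 bases. Crip1, a small LIM protein, had 6229 and 10631 over 79 bases, and Arhgap45, a GTPase-activating protein, had 6076 and 10104 over 88 bases.

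Within a gene, short introns were read as often as longer ones in some cases and less often in others. In Coro1a the introns of 86, 87 and 98 bases held 13956, 21013 and 9887 reads, and the 5 junctions of 106 to 271 bases in the same stretch that had at least 100 reads held between 8421 and 16202. In Eef2 the 6 short introns ranged between 3261 and 17322 reads, and the 7 longer ones between 5128 and 22630. The ranges overlapped in both genes. In Actb the intron of 95 bases, with 19424 reads, was the least read of the 5 main ones.

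**Figure D2:**
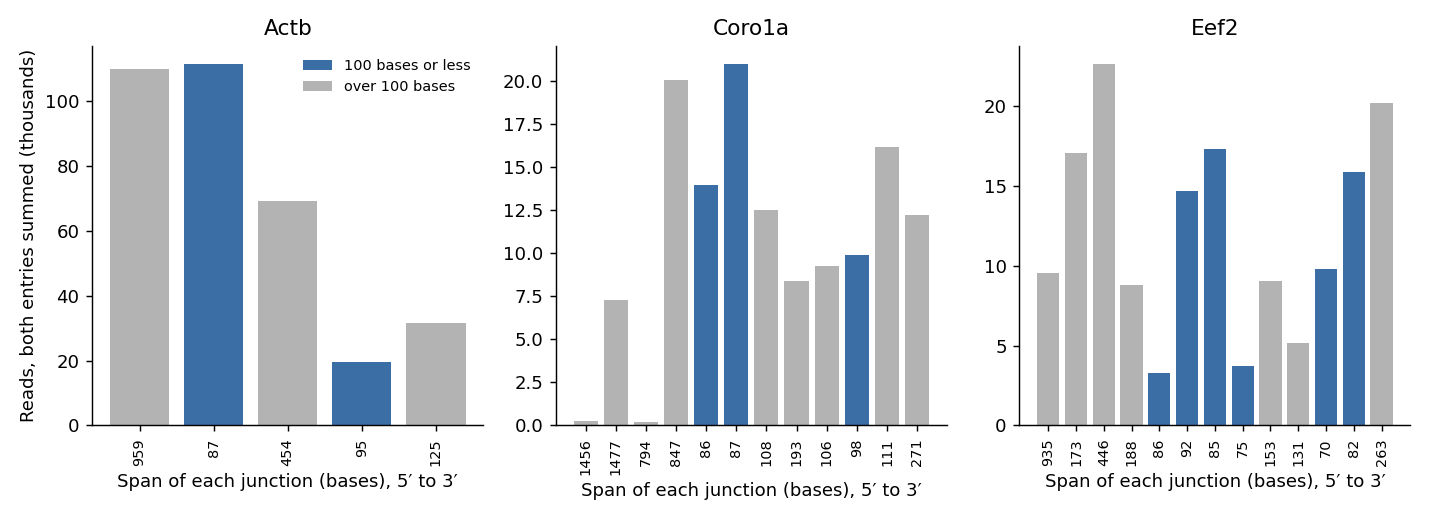
Reads of each junction with at least 100 reads (both entries summed, axis in units of 1000 reads) in Actb, Coro1a and Eef2, in order 5′ to 3′ and labelled with its span in bases. Blue bars are junctions of 100 bases or less and grey bars longer ones; in Eef2 the short ones run between 3261 and 17322 reads.

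Over all members, the reads were compared with the mean of the most read junction on each side that began or ended within 500 bases on the same strand. The median log2 ratio was -0.36 over 8884 members, against -0.33 over 115853 longer junctions. By flags it was -0.24 for A = 1 and C = 1, -4.33 for A = 0 and C = 1 and -2.78 for A = 0 and C = 0. Reads were part of the rule, so the levels are a description.

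In the 10 members with the highest ratios, the neighbours within 500 bases averaged 11 to 158 reads; junctions farther away were not counted. Maz, a zinc finger transcription factor, had 8796 reads in R1 and 5843 in R2 over its second intron of 73 bases, where the neighbours averaged 158 (log2 ratio 6.53). Dnajc19, which takes part in import into mitochondria, had 617 and 907 over 73 bases (6.57), and Rps2, of the small ribosomal subunit, had 2697 and 2750 over 81 bases (6.02). Zfp513, Pabpc4 and Smim7 followed at 5.42, 5.31 and 4.87. The other 4 of the 10 highest matched no intron: a span of 33 bases inside Peak1 (3064 and 4102 reads, 7.3), a span of 63 bases opposite to Zc3h7a (1247 and 1609 reads, 5.93), and spans of 96 and 99 bases at chr6:41066078-41066173 (7.32) and chr6:41080192-41080290 (6.23), plus strand.

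The 5 lowest ratios among members with at least 50 reads were rare junctions beside well-read ones, all with A = 0 and C = 1. They lay in Lck, the kinase that starts T cell receptor signalling (27 and 31 reads over 77 bases against a neighbour mean of 9013, log2 ratio -7.28), Map4k2 (-7.07), Shisa5 (-7.0), Arhgap45 (-6.66) and Thy1, a surface protein of thymocytes (-6.58). The Arhgap45 junction of 99 bases, with 32 and 74 reads, starts at the same donor as the member of 88 bases described above, with 16180 reads.

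Of the genes that T cells use, 11 of the 31 in the list of receptor and signalling genes held 41 members, which is 11.9% of that list's 345 named well-read junctions, against 6.76% over all 11345 named genes. Plcg1, a phospholipase activated by the receptor, held 12 members of 73 to 95 bases. Lat held 5, of 75, 79, 83, 97 and 98 bases and 34764 reads in all. The most read of these had 3611 reads in R1 and 5206 in R2 (75 bases), followed by 2911 and 5025 (98 bases) in the same gene and by 3318 and 3909 over an intron of 77 bases in Lck. Lat had 1320 and 1210 TPM and Lck 1330 and 1450 TPM in libraries 1 and 2. Ptpn6, Vav1 and Zap70 held 4 members each, Csk, Lck and Ptprc 3 each, and Fyn and Lcp2 1 each. No member was named in 20 genes of the list, among them Cd3e, Cd4 and Cd8a, and 1 of the 31 genes could not be named because it has fewer than 2 introns.

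Among the 16 transcription factors of the T lineage, 3 held members. Tcf3, an E protein needed for early lymphocytes, held 4 of 67, 76, 87 and 92 bases with 10628 reads in all, of which the most read had 1660 and 1560. The next 2 in Tcf3 had 1449 and 1580 reads over 92 bases and 1317 and 1441 over 67 bases. Notch1, the receptor that commits progenitors to the T lineage, held 4 and Notch3 held 6. The share of short junctions in this list was 6.67%, close to that over all named genes.

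The other lists were chosen because their genes are read in most cells. Splicing factors held 63 members in 35 of 109 genes (6.45% of their named junctions), with the most reads in Hnrnpab (above), Srsf7 (1070 and 1501 over 80 bases) and Hnrnpl (1187 and 1375 over 84 bases). Ribosomal proteins held 39 in 25 of 96 genes (9.22%), led by Rpl8 (7000 and 7184 over 88 bases) and Rplp0 (2685 and 4781 over 94 bases). Proteasome genes held 28 in 16 of 49 (7.04%), led by Psmb10 (1288 and 1910 over 87 bases) and by Psmc4 (1265 and 1518 over 93 bases, 779 and 887 over 83 bases).

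Minichromosome maintenance genes, which load the replicative helicase, held 11 members in 6 of 10 genes (6.67%). The most read were in Mcm5 (1332 and 1119 over 78 bases, in the 5′ UTR) and Mcm2 (1240 and 1116 over 95 bases, 930 and 794 over 92 bases). Tubulins and gamma-tubulin complex genes held 13 in 4 of 23 (8.67%), with 3546 and 3925 reads over 79 bases in Tubb4b, 337 and 374 in Tubgcp3 and 193 and 330 in Tubgcp6. Aminoacyl-tRNA synthetases held 27 in 8 of 17 (9.25%), led by Vars (1065 and 1085 over 97 bases) and Qars (813 and 1218 over 86 bases, 630 and 751 over 84 bases).

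Most host genes held 1 member. Of the 3240 host genes, 1744 held 1, 1138 held 2 to 4, 285 held 5 to 9 and 73 held 10 or more, and these 73 held 990 members. Lama5, a laminin chain of basement membranes, held the most, with 31 of its 77 well-read junctions, although they had 10 to 185 reads each. Cpsf1, of the complex that cleaves and polyadenylates messages, held 28 of 39, with a median span of 77 bases and 70 to 1643 reads. Abca2 followed with 24 of 48, Sbf1 with 23 of 43, Stab1 with 21 of 68, Piezo1 with 19 of 51, Lamb2 with 19 of 32 and Nbeal2 with 18 of 55.

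These genes did not share a level of expression. Sbf1 had 728 ± 31.2 TPM and Nbeal2 255 ± 12 TPM, whereas Lama5 had 9.01 ± 1.85 TPM and Stab1 17.7 ± 4.65 TPM (SD, n = 2 each). The median host gene had 30.2 TPM in library 1 and 28.9 TPM in library 2, against 13.9 and 13.4 TPM for the 8105 named genes without a member. The rule used a minimum of 10 reads, so this difference in level is a description. All but 26 of the host genes are annotated as protein-coding.

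Within the gene, 7250 of the 7500 named members (96.7%) lay inside the coding region, against 91.2% of all named well-read junctions. The 5′ UTR held 1.07% of the members, against 5.32% of all, and the 3′ UTR 0.373%, against 0.517%. In transcripts of at least 3 introns, the first intron made up 3.37% of the members, against 9.32% of all, and the last 8.79%, against 8.7%. Members were thus less often first introns than well-read junctions in general were, but not less often last ones. Across chromosomes, short junctions made up 10.35% of the well-read junctions on chromosome 17 and 10.19% on chromosome 7, and 3.26% on chromosome 1.

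A second deposited list gives contigs, which are stretches of the genome with RNA signal. A member was counted as covered when it lay wholly inside 1 contig of its own strand. This held for 7758 members (82.43%), against 27.5% of longer junctions and 31.4% of all well-read junctions. Among longer junctions it held for 72.02% of those of up to 200 bases and for 9.66% of those of over 1000 bases. How contigs were joined across gaps is not given in the sources used here, and was not tested.

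The share also moved with reads. Among members with A = 1 and C = 1, 50.6% were inside a contig at 10 to 49 reads (95% exact Clopper-Pearson interval 48.2% to 52.9%, which covers counting error only), 84.1% at 50 or more and under 500 reads and 98.3% at 500 reads or more. At 500 reads or more, the share was 94.8% for junctions of over 100 and up to 200 bases, 76.3% for those of up to 1000 bases and 26.3% for longer ones. Members with A = 0 and C = 0 were inside a contig in 95.5% of cases, also at 10 to 49 reads (95.2%). Of the members outside any contig, Cfd had the most reads (17126), followed by Prdx2, an antioxidant enzyme of red cells, with 1535 and 2154 reads, and Ccl21a, a chemokine of the thymus and lymph node, with 917 and 1804, all chosen after their values were seen.

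**Figure D3:**
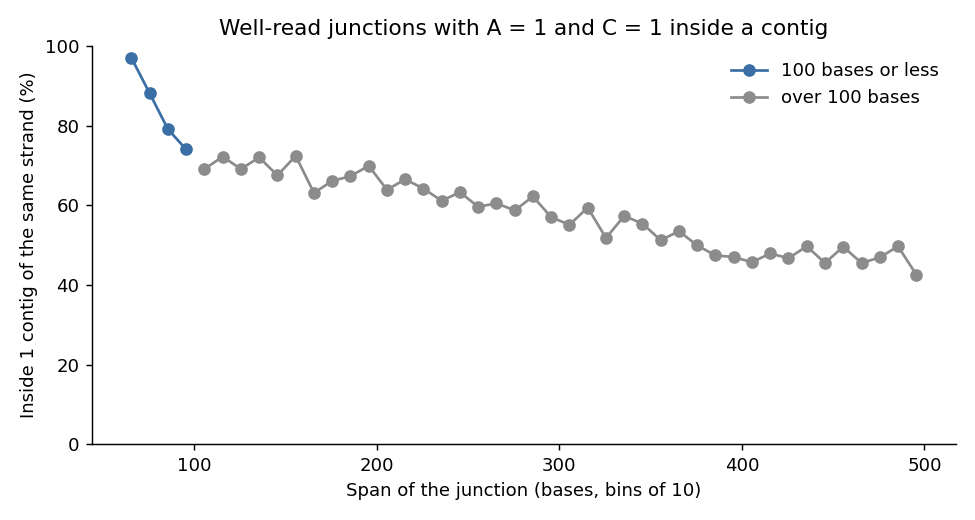
Share of well-read autosomal junctions with A = 1 and C = 1 that lie wholly inside 1 contig of the same strand, in bins of 10 bases of span with at least 20 junctions. Blue points are spans of 100 bases or less and grey points longer ones; the share is 97.0% at 61 to 70 bases, 88.1% at 71 to 80, 79.1% at 81 to 90 and 74.0% at 91 to 100.

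Alternative splicing shows as 2 junctions that share 1 end. Of the members, 1889 (20.1%) shared an end with another well-read junction, against 24.6% of all well-read junctions. It was 12.4% by the reads of R1 alone, 52.0% where the other junction needed 1 read and 8.52% where the lesser of the 2 had to hold 10% of the reads; the share of all junctions was not recomputed for these. The share was 14.0% for A = 1 and C = 1, 75.3% for A = 0 and C = 1 and 28.1% for A = 0 and C = 0. Members with A = 0 and C = 1 held a median of 5.04% of the reads of the 2 junctions, and those with A = 1 and C = 1 held 93.1%. The donor was shared by 1130 and the acceptor by 759. For 133 members the partner differed by 3 bases, 131 of them with a shared donor and so with acceptors 3 bases apart. That is the spacing of a tandem NAG acceptor, but the bases at these acceptors were not examined for this count. For 164 members the partner differed by 4 bases, 77 with a shared donor and 87 with a shared acceptor. These are counts of members, so a pair of members counts as 2.

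Cic, a repressor of the high mobility group family, gives the clearest case. From 1 donor (chr7:26075985, plus strand) it used acceptors that make introns of 86 and 89 bases, with 486 and 439 reads in R1 and 491 and 521 reads in R2. The shorter one thus held 50.4% of the reads. It was chosen, after its values were seen, as the most even split in a coding region with a partner of at most 500 bases, and of 1313 members anywhere with a partner of at most 500 bases and at least 50 reads over both, 71 held between 40 and 60% of the reads. Dgkz, a kinase that limits diacylglycerol in T cells, was also chosen after its values were seen. It had 809 and 1132 reads over an intron of 83 bases with A = 0, beside an annotated junction of 86 bases with 6746 reads.

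Among the members with at least 50 reads over both junctions, 18 had exactly as many reads as their partner, and 16 of these partners spanned over 1000 bases. The 10 most read of the 18 had partners of 19996 to 160558 bases, and several of the pairs are near-identical gene copies. They were C1ra and C1rb (108 and 135 reads each over 97 bases), the splicing factors Mfap1a and Mfap1b (62 and 85 each over 82 bases), the complement genes C4a and C4b (30 and 52 each over 75 bases), Tnxb (37 and 87 over 89 bases) and Usf2 (438 and 493 over 81 bases). The other 2 were at chr7:31711984-31712069 (minus strand, 301 and 372 reads) and chr12:116886468-116886552 (minus strand, 23 and 164 reads). How reads that fit more than 1 copy were counted is not given in the sources used here, so the reads of each of these genes are uncertain. C1rb had 0.0 and 0.04 TPM and C1ra 9.08 and 9.7 TPM, although their introns carried the same counts.

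Members also lay inside longer well-read junctions of the same strand in 23.5% of cases, against 13.7% of all well-read junctions. By the reads of 1 entry alone the members' share was 12.4 to 15.0%; the share of all junctions was not recomputed. With both entries, the members' share was 19% for A = 1 and C = 1 and 57.5% for A = 0 and C = 0. The length of the outer junction was not limited.

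Bases could be read for 129 of the members with A = 0 and C = 0, which lie inside an annotated exon that begins or ends at a named junction. None had GT and AG at its ends, which allows a share of up to 2.33% by counting error alone. The flag C went with the end bases in every member read above, so this lack describes the flag and is not a separate result. The bases at one end were often repeated at the other, so the exact position of the junction can be moved along the repeat without changing the joined RNA. In 20 of the 129, some position within the repeat gave GC and AG, and 6 of these had it as listed. Examples of 3 kinds are shown (a GC and AG placement, a long repeat, and the most read of those in coding exons), with capitals for the bases repeated at both ends of the span and 10 bases or the rest of the repeat on each side, from the GENCODE M21 transcripts, 5′ to 3′ (junction positions are mm9).
Man2c1, span of 93 bases, chr9:56989517-56989609, plus strand: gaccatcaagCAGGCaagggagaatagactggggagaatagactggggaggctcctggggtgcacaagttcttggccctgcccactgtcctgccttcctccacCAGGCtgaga
Rabggta, span of 100 bases, chr14:56337398-56337497, minus strand: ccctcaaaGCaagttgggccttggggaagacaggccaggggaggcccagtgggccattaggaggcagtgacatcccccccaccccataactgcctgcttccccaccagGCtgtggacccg
Ncaph2, span of 86 bases, chr15:89200738-89200823, plus strand: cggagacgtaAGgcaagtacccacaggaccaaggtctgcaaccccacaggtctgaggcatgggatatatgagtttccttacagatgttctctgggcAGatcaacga
Mink1, span of 40 bases, chr11:70423326-70423365, plus strand: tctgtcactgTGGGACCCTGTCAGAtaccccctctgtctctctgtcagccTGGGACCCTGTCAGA
Son, span of 60 bases, chr16:91656773-91656832, plus strand: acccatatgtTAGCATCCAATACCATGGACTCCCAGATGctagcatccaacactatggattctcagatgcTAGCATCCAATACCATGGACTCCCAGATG
Sec31a, span of 50 bases, chr5:100802658-100802707, minus strand: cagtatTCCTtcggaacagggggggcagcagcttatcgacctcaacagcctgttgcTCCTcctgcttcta
Prrc2a, span of 41 bases, chr17:35289624-35289664, minus strand: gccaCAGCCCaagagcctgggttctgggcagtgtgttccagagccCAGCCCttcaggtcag
Tardbp, span of 91 bases, chr4:147999279-147999369, minus strand: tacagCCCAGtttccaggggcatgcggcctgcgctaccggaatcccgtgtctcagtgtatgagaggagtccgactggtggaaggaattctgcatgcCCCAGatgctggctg

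The first 3 take GC at the start and AG at the end when moved within the repeat, by 3 bases in Man2c1, -2 in Rabggta and 2 in Ncaph2, where a positive number is toward the 3′ end. Man2c1, a mannosidase, held 427 and 714 reads there, and its log2 ratio to its neighbours was -0.22. Mink1 and Son have long direct repeats, of 15 and 29 bases, and Son codes for a protein of nuclear speckles with a repeated stretch. The last 3 lie in coding exons, with repeats of 4 to 6 bases. In Tardbp, which codes for the RNA-binding protein TDP-43, 9 bases in a row near the start of the span also occur as their reverse complement near its end.

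A repeat of at least 4 bases was present in 58.1% of the 129 and had a median of 4 bases, against 20.9% and a median of 2 bases in the 1502 kept introns with A = 1 and C = 1. A repeat of at least 8 bases was present in 15.5%, against 0.133%. A reverse complement of at least 8 bases between the first and last 30 bases was present in 14.7%, against 1.6%. In the shortest spans these 2 stretches overlap, so the shares are not at equal length. The median span was 63 bases over all members with A = 0 and C = 0, against 86 with A = 1 and C = 1. The span was a multiple of 3 in 48.1%, against 32.5%, but in 28.6% of the 21 with at least 50 reads and in 39.1% of all 866 members with A = 0 and C = 0. The 159 members with A = 0 and C = 1 inside an exon all had GT and AG, with a repeat of at least 4 bases in 21.4%. A repeat of at least 8 bases was present in 8.81% of these 159, also above the share in kept introns. A reverse complement of at least 8 bases was present in 1.26% of them.

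**Figure D4:**
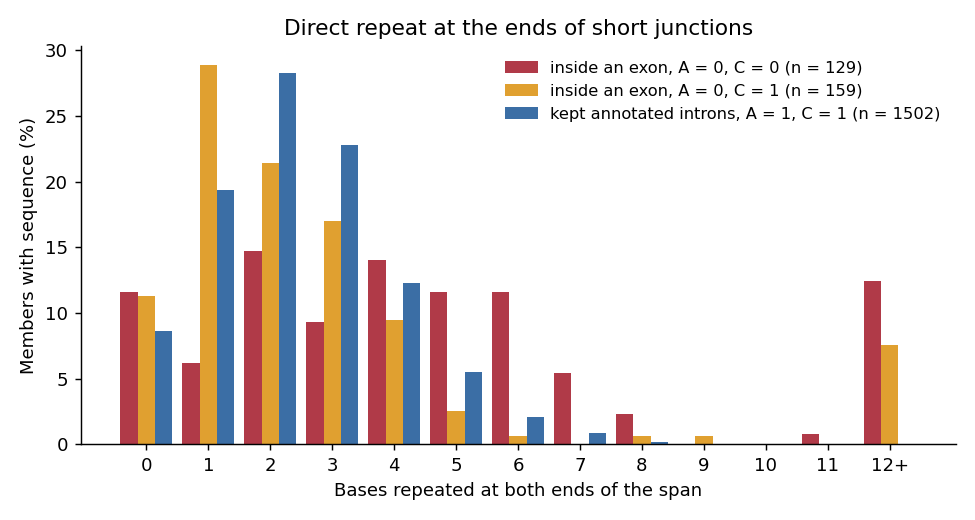
Share of members by the number of bases repeated at both ends of the span, for junctions inside an exon with A = 0 and C = 0 (red, n = 129), inside an exon with A = 0 and C = 1 (yellow, n = 159) and for kept annotated introns (blue, n = 1502). Repeats of at least 8 bases made up 15.5% of the red group, 8.81% of the yellow group and 0.133% of the blue group.

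Most junctions with A = 0 and C = 0 lay alone or in small groups, and a few places held many. Joined where neighbours on a strand started within 10000 bases of each other, the 866 fell into 573 loci, of which 452 held 1 member and 19 held 5 or more, with 170 members. The largest held 35 members between chr16:11144028-11144286 on the strand opposite to Zc3h7a, with 2052 reads in R1 and 2421 in R2. The next held 19 inside Peak1 (chr9:56071559-56071719, minus strand) with 3774 and 4857 reads, of which the span of 33 bases held 7166. Peak1 had just 7.31 and 6.79 TPM in libraries 1 and 2, and the neighbours of that span averaged 45.5 reads. Contig signal was 478 over that span and 30700 over the span of 63 bases opposite to Zc3h7a, against 804 over the Actb intron of 87 bases. The source of the reads at both loci was not tested. A locus of 15 on chromosome 17 without a named gene and one of 14 in Laptm5, a lysosomal protein of blood cells, followed. These loci were chosen after their values were seen.

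The most read members with A = 0 and C = 0, beside those in Peak1, opposite to Zc3h7a and in Man2c1 and Mink1 (283 and 537 reads over 40 bases), include several of 66 to 86 bases. Cbl, a ubiquitin ligase that limits receptor signals, held 1188 and 1178 reads over 85 bases, and Vars 384 and 363 over 86 bases. Atp2a2, a calcium pump, held 125 and 507 over 78 bases. A pair of spans of 66 bases lay at chr6:41488379-41488444 (634 and 929 reads) and chr6:41496891-41496956 (540 and 731 reads), and a junction of 8578 bases with 1119 reads shares 1 end with each. The shortest members were 13 of 31 bases, 12 with A = 0 and C = 0 and 1 with A = 0 and C = 1. The 5 most read of these all had C = 0. The first was at chr4:131912362-131912392 (minus strand) with 113 and 145 reads, and the others, in Camk1d, opposite to Zc3h7a and at chr18:80666208-80666238 and chr11:100232203-100232233, had 23 to 29.

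The R1 and R2 entries were close for most members. Among the 5049 members with at least 100 reads, 107 (2.12%) were at least 2-fold apart in RPM, against 2.49% of all 54244 such junctions. The share was 1.93% for A = 1 and C = 1, 7.69% for A = 0 and C = 1 and 9.68% for A = 0 and C = 0, the last over just 62 members. Of all members, 98 had no read in R1 and 9 none in R2, and 58 of the 98 had A = 0 and C = 0. The same share over all well-read junctions was not computed, and R1 held fewer reads (17.21 M against 21.73 M). These counts therefore do not set the members apart.

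Of the 107, 74 were higher in R2 and 33 in R1. The 6 farthest apart toward R2, named after their values were seen, were a span of 51 bases inside Cenpa, with A = 0, C = 0 and 0 and 122 reads (gene at 131 and 94.6 TPM), and 5 introns in genes of heart and skeletal muscle. Myl2, a myosin light chain of the heart, had 4 reads in R1 and 536 in R2 over an intron of 82 bases, and its gene had 0.66 and 133 TPM in libraries 1 and 2. Tnnc1, a troponin of heart and slow muscle, had 3 and 423 reads (3.5 and 81.5 TPM). Mybpc3, a myosin-binding protein of the heart, had 24 and 690 reads over 79 bases and 6 and 278 over 95 bases (2.03 and 45.6 TPM). Cox6a2, a muscle form of a cytochrome oxidase subunit, had 194 and 4710 reads (25.3 and 342 TPM). The part that other tissue has in these values was not tested. Toward R1 the farthest apart were Larp1, an RNA-binding protein, with 113 and 46 reads, and Rbp4, a carrier of retinol, with 78 and 36.

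**Figure D5:**
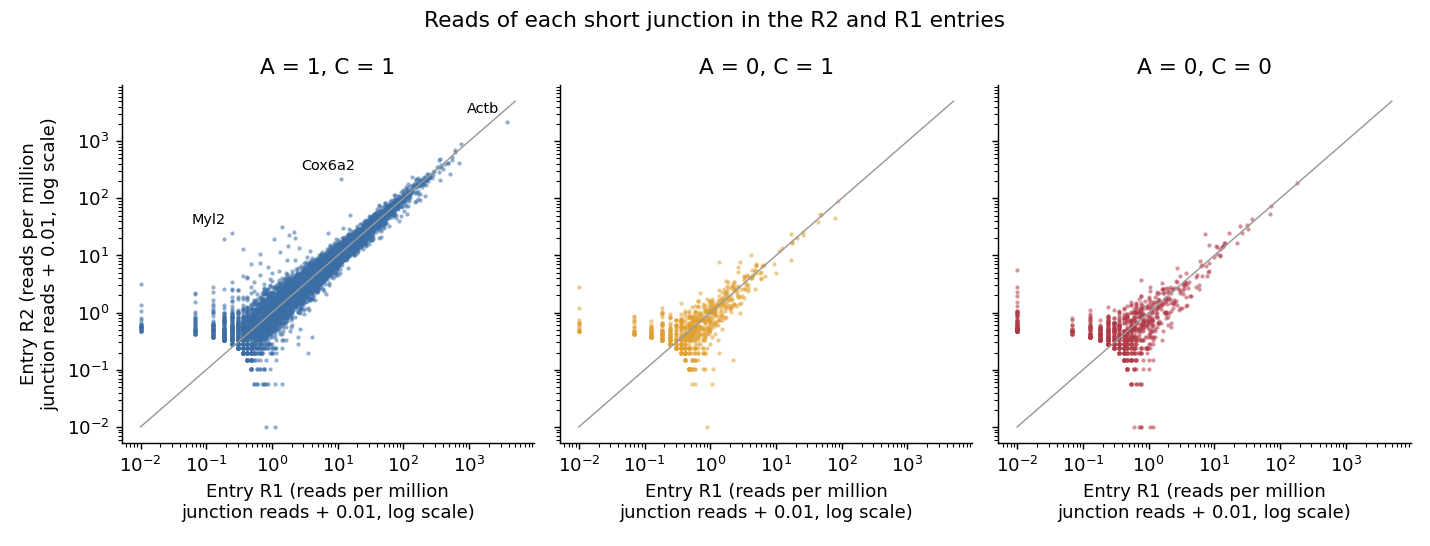
Reads of each member in RPM in the R2 entry (vertical) and the R1 entry (horizontal), with 0.01 added and both axes on a log scale, in 3 panels by flags. Most members lie along the line of equal values, and Myl2 and Cox6a2 lie above it.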

How the data were processed

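RNA-seq was measured in 2 libraries of 1 group. The deposited junction list (mm9, per its file label) gives read counts per junction, summed and per replicate entry, and a score of reproducibility. The deposited contig list (mm9) gives a signal per contig and a score. The deposited gene and transcript tables give expected counts and TPM per library, on mm10 with GENCODE M4, per the text deposited with them; for the aligner, the counter and the treatment of multiply mapped reads: not given in the sources used here. Entries R1 and R2 are not tied to library numbers.

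Python 3.11.15 scripts named junctions by lengths as described, without converting coordinates; 11318 of 11326 neighbouring named genes kept their order between builds. An unmatched member was put inside a gene when it lay between the outermost named junctions of that gene alone. Matching and cover were tested on simulated data. Genes were named by a rule: most reads, shortest, extreme ratios, most even splits, most members, and fixed lists. Members and lists were chosen with earlier results of these data known. No tests were made, since there is 1 group and junctions are not replicates; depth limits precision, and intervals cover counting error only. Some members of the lists are not reported here by name.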

Additional observations from a re-analysis of the deposited data

Results flagged for a closer look

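Short, well-read junctions also occurred outside the autosomes, which the report leaves out. The X chromosome held 237, of which 218 had A = 1 and C = 1, with a median span of 88 bases and a median of 124 reads. The Y chromosome held 4, all with A = 1 and C = 1, with 23 to 38 reads, and their reads summed to 0 in R1 and 124 in R2. The mitochondrial genome held 6, all with A = 0 and C = 0, with 10 to 129 reads and a median span of 61 bases, and made up 85.71% of its 7 well-read junctions. They are given because they are signal outside the autosomes described above.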

How the results depend on the processing

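With a minimum of 20 reads the members had a median span of 86 bases, with 4.44% under 70 bases; with 50 reads these were 86 bases and 2.73%, and 89.2% lay inside a contig. Counting contigs of either strand gave 83.5%. The share with a shared end was 52.0% when the other junction needed 1 read and 8.52% when the lesser junction had to hold 10% of the reads. The share inside a longer junction was 98.9% when that junction needed 1 read, and the median log2 ratio to neighbours of at least 1 read was -0.24. The median host gene had 46.3 CPM from expected counts, against 29.85 TPM (mean of both libraries). The cause of these moves was not tested.

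Applying the rule to 1 entry alone was chosen after seeing the data. It gave 7638 to 8249 members, a median span of 85 to 86 bases, 32.1 to 32.4% multiples of 3, 4.31 to 5.53% under 70 bases, 84.2 to 85.6% inside a contig, 12.4 to 14.5% with a shared end, 12.4 to 15.0% inside a longer junction, median ratios of -0.32 to -0.30 and 6592 to 6939 named members. The lower of each pair of member counts is that of R1, the entry with fewer reads. Without 1 library the median host gene had 28.9 to 30.2 TPM. The number of members was 7880 and 6298 with a minimum of 20 and 50 reads. No value changed sign. No paired analysis was possible because there is 1 group and no test. Junctions with few reads limit what can be said of spans under 70 bases.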
